A study of Mus musculus with 6 samples.

Results

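The 38 genes described here encode the carriers that move glucose and lactate across the cell membrane, the enzymes of glycolysis, and proteins whose genes are known targets of the hypoxia-inducible factor (HIF), together with its subunit Hif1a. They were chosen by name, with earlier results of these data known. Each of the 38 was found among the 57126 genes of a table of read counts. All 38 passed the filter on low counts, at least 1 count in at least 3 samples, and all but *Eno2* (37 genes) reached 10 counts in each of the 6 samples.

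The counts came from OT-I CD8+ T cells, mouse cytotoxic T cells with a transgenic receptor for an ovalbumin peptide. Cells of lymph nodes and spleens were cultured for 6 days with nano-aAPCs, iron oxide nanoparticles that carry a peptide on MHC-I and an antibody to CD28 in place of an antigen-presenting cell. The 3 TEff samples received IL-2, while the 3 TRM-like samples, named for tissue-resident memory T cells, received IL-15 and TGF-β beside IL-2, so all 6 samples shared the OT-I receptor, the particles, and IL-2. Effects of IL-15 and of TGF-β cannot be told apart in this design. The labels do not say whether replicates came from separate mice or cultures, so p-values measure the spread between these samples, which may be technical. The comparison addresses which genes of glucose use and of the hypoxia response differed between the cytokine conditions.

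Between 18319013 and 23622621 reads per sample were counted on genes. The number of genes with any read was 35130 in TRM-like replicate 1, 35559 in TRM-like replicate 2, and 24229 to 24908 elsewhere. Fits without TRM-like replicate 3 thus take their TRM-like group from replicates 1 and 2 alone. The part of this difference in the results was not tested. CD8 T cell markers were present in all 6 samples, *Cd8a* at 421.5 to 448 CPM (counts per 1000000, scaled by edgeR's TMM method) in TEff and 927 to 989 in TRM-like samples (called higher). Of the same list of 8, the cytotoxic genes *Gzmb* and *Prf1* were called lower, with log2 fold changes of -1.91 and -2.67, and *Cd3g* was at 512.5 to 537 CPM in TEff and 1060, 1166, and 518 CPM in TRM-like samples, replicate 3 being at the TEff level. Of the 8 markers of monocytes, macrophages, and granulocytes, 2 were at 0 in every sample. The sum of the list was 4.01 to 5.02 CPM in TEff and 2.79 to 4.49 CPM in TRM-like samples. Sums of lists in this paragraph are scaled to library totals alone, without the TMM factor. *Cd4* did not exceed 0.111 CPM, while *Zbtb7b* of the CD4 list was at 35.0 to 40.3 CPM in TEff and 16.9 to 25.1 CPM in TRM-like samples (called lower). The 4 natural killer markers, summing to 9.93 to 22.5 CPM in TEff and 0.0944 to 9.10 CPM in TRM-like samples and mostly *Klrb1c*, moved with the samples that stand apart among the members, with *Klrb1c* at 21.9 CPM in TEff replicate 2, 0.0922 CPM in TRM-like replicate 3, and 6.68 to 11.8 CPM in the others, and their part in the results was not tested. *Pecam1*, an endothelial marker that some T cells also express, was at 46.0 to 63.0 CPM in TEff and 19.3 to 40.7 CPM in TRM-like samples. In such bulk samples, fewer cells of a type and less RNA per cell cannot be told apart.

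Glycolysis splits glucose into pyruvate in the cytosol, and lactate dehydrogenase turns pyruvate into lactate, which leaves the cell through monocarboxylate carriers. Activated T cells are known for high rates of this pathway even where oxygen is present. HIF is a transcription factor made of an oxygen-labile α subunit and a stable β subunit. Prolyl hydroxylases mark the α subunit for degradation when oxygen is present, and at low oxygen, or after signals that raise its synthesis, HIF activates genes of glycolysis, pH control, mitochondrial turnover, and collagen processing.

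Of the 38 genes, 5 passed the threshold of an adjusted p below 0.05 and a log2 fold change beyond 0.58. *Aldoc*, an aldolase, and *Ankrd37*, an ankyrin repeat protein, were higher in TRM-like samples, while *Slc2a3*, which encodes the glucose carrier GLUT3, *Hif1a*, and *Mxi1*, a MAX partner that opposes MYC, were lower. The 2 higher genes are 5.26% of the list, and 1.52% of the 26154 genes tested were called higher. The 3 lower genes are 7.89% of the list, and 1.48% of all genes tested were called lower. When only the 14822 genes that reached 10 counts in all 6 samples were fitted, the shares were 2.02% and 1.89%. The count of called members was 2 without TEff replicate 1, 3 without TEff replicate 2 or 3, and 8 without TRM-like replicate 3. Adjusted p-values of genes come from the quasi-likelihood test of edgeR, adjusted by Benjamini and Hochberg's method over all genes tested, and a log2 fold change is TRM-like over TEff.

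The group difference of the other members depended on which replicates were read. TRM-like replicate 3 was the highest of the 6 samples in 32 of the 38 genes (84.2%). Over all genes tested it was the highest in 19.4%, and over the 14822 with 10 counts in every sample in 26.3%. TEff replicate 2 was the lowest in 29 of the 38 (76.3%), against 17.5% of all genes tested and 17.6% of those 14822. The median over the members of the difference from the TEff mean, on the log2 scale of CPM with 0.5 added, was 0.13, -0.29, and 0.18 in TEff replicates 1, 2, and 3 and 0.02, 0.11, and 0.89 in TRM-like replicates 1, 2, and 3. TRM-like replicates 1 and 2 therefore lay within the range of the TEff samples in this median, and replicate 3 alone lay above it.

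The disagreement was between single samples of a group and not spread over all of them. Leaving *Eno2* aside, the ratio over 37 genes of CPM in TRM-like replicate 3 to the mean of replicates 1 and 2 had a median of 1.81 and ranged from 0.618 (*Aldoc*) to 6.26 (*Ak4*), and it exceeded 1.5 in 26 genes. The ratio of TRM-like replicate 2 to replicate 1 had a median of 1.05 and ranged from 0.786 to 1.23. In the TEff group, replicate 2 over the mean of replicates 1 and 3 had a median of 0.738, with 20 genes below 0.75, and replicate 3 over replicate 1 had a median of 1.05. The members took 0.660%, 0.396%, and 0.677% of all counts in the TEff samples and 0.570%, 0.576%, and 1.00% in the TRM-like samples, so the highest and lowest loads were those of TRM-like replicate 3 and TEff replicate 2. The mitochondrial ribosomal RNA *mt-Rnr2* took 18.1%, 18.8%, and 17.5% of the counts in TEff and 18.1%, 17.7%, and 14.8% in TRM-like samples, so it ran opposite to the members, lowest in TRM-like replicate 3 and highest in TEff replicate 2, and its part in the result was not tested.

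**Figure D1:**
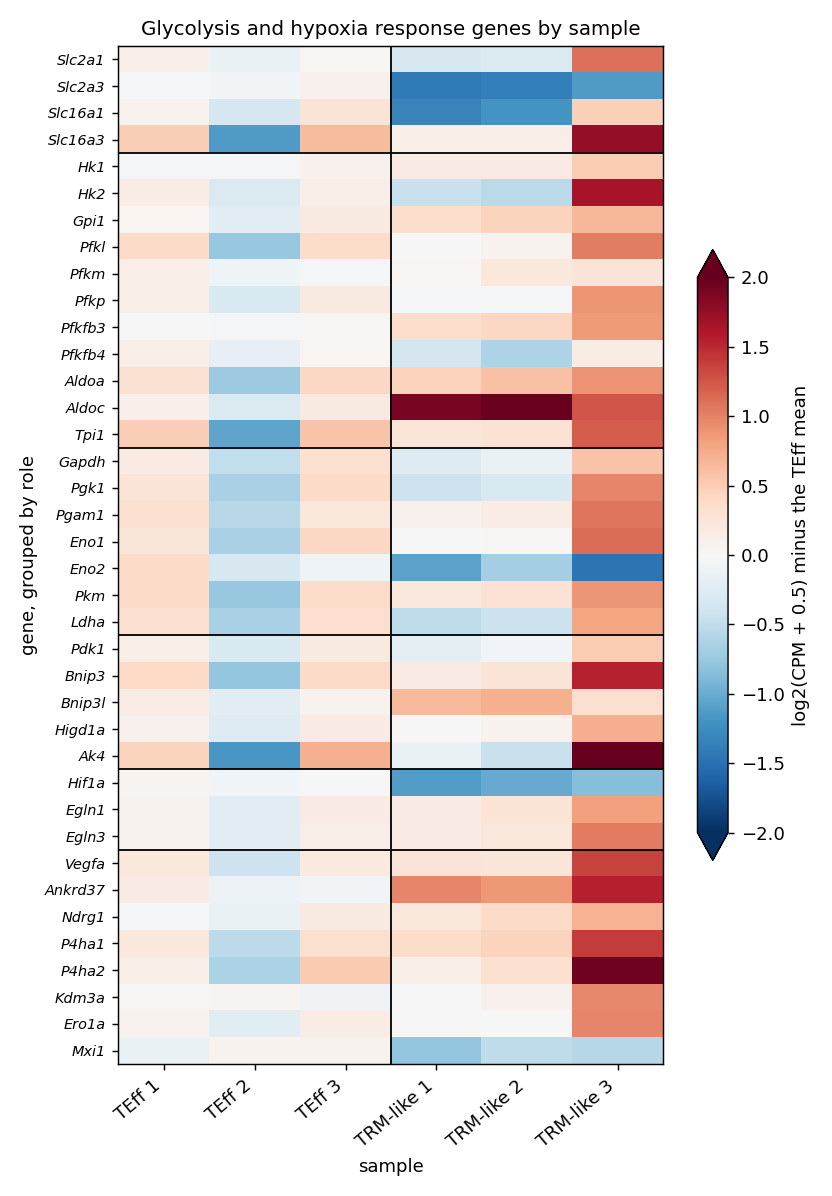
Each cell shows a gene in a sample as log2(CPM + 0.5) minus the mean of the 3 TEff samples, with genes in rows grouped by role and samples in columns. The TRM-like replicate 3 column is the highest of its row in 32 of 38 genes and the TEff replicate 2 column the lowest in 29, while *Slc2a3*, *Hif1a*, and *Mxi1* are low and *Aldoc* and *Ankrd37* high in all 3 TRM-like columns.

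With all 6 samples, 32 of the 38 log2 fold changes were positive and their median was 0.41, where the median of all genes tested was 0.02. Without TRM-like replicate 3, 20 were positive, the median was 0.03, and the TRM-like group was then the 2 samples with most genes detected. Without both TEff replicate 2 and TRM-like replicate 3, a setting chosen after these values were seen, 14 were positive and the median was -0.18. These 2 samples were picked as the lowest and highest over the same members, so leaving them out lowers the typical fold change by that choice. Counts and adjusted p-values of this setting are therefore no test of the members. Dropping any single sample kept the median positive, from 0.03 (TRM-like replicate 3 dropped) to 0.56 (TRM-like replicate 1 dropped). The size of the typical fold change thus depended on the samples used. Its sign changed only where both picked samples were dropped, which says nothing about the members.

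The calls moved as well. Without TRM-like replicate 3, 3 members were higher (7.89% of the list, 6.38% of all genes), namely *Aldoc*, *Ankrd37*, and *Bnip3l*, and 5 were lower (13.2%, against 7.67% of all genes), namely *Slc2a3*, *Hif1a*, *Mxi1*, *Slc16a1*, and *Eno2*. Without both samples, 2 were higher (5.26%, against 7.99% of all genes), *Aldoc* and *Ankrd37*, and 10 were lower (26.3%, against 9.76% of all genes). *Hk2*, *Pfkfb4*, *Pgk1*, *Ldha*, and *Ak4* joined the lower genes in that setting, which was chosen from these same values and tests nothing about them. In every one of these settings *Aldoc* and *Ankrd37* were higher and *Slc2a3*, *Hif1a*, and *Mxi1* lower.

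**Figure D2:**
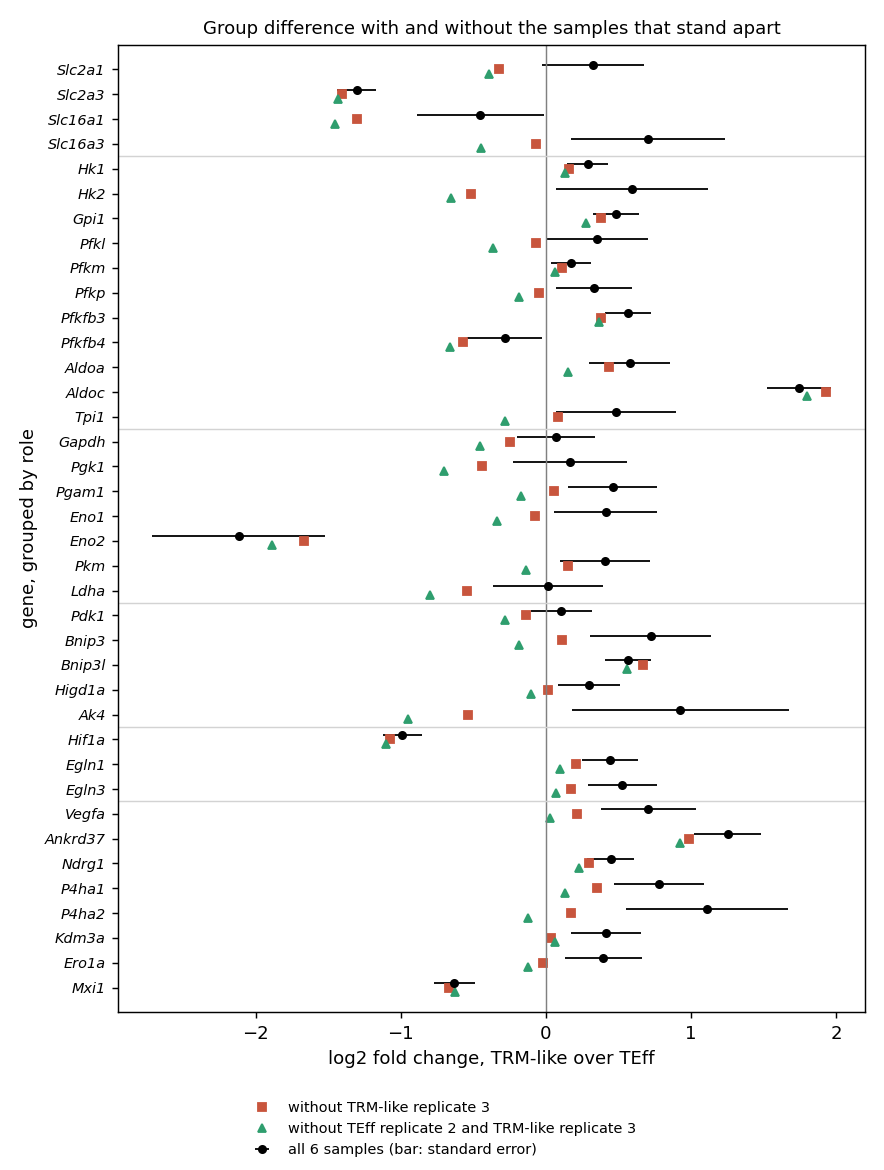
The horizontal axis is the log2 fold change of TRM-like over TEff for each member, with the standard error drawn for the fit of all 6 samples. Most members lie right of 0 with all samples (32 of 38). Most lie left of it without TEff replicate 2 and TRM-like replicate 3 (14 of 38 positive), which were picked from these values. The called genes *Slc2a3*, *Hif1a*, *Mxi1*, *Aldoc*, and *Ankrd37* keep their side, as do others such as *Hk1*, *Gpi1*, and *Bnip3l*.

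A count of genes whose groups did not overlap gave the same uneven picture. In 12 members every TRM-like sample was above every TEff sample (31.6%, against 10.6% of all genes tested), and in 4 every TRM-like sample was below (10.5%, against 9.71% of all genes tested). Besides the called genes, these were *Hk1*, *Gpi1*, *Pfkfb3*, *Aldoa*, *Bnip3l*, *Egln1*, *Egln3*, *Vegfa*, *Ndrg1*, and *P4ha1* on the higher side and *Eno2* on the lower side. None of these 11 passed the adjusted threshold by edgeR, while 12 of all 38 members (31.6%) and 14.8% of all genes tested had an unadjusted p below 0.05.

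Of the 4 carrier genes *Slc2a3* was called lower, and the other 3 had groups that overlapped. *Slc2a3* (ENSMUSG00000003153, GRCm39 chromosome 6, 122704768 to 122778599, minus strand) encodes GLUT3, a glucose carrier of high affinity. It was measured at 157, 154, and 169 CPM in TEff and at 59.6, 61.9, and 72.9 CPM in TRM-like samples. All 3 TRM-like values lay far below the lowest TEff value, and the replicates of each group lay close together. The log2 fold change was -1.30 ± 0.13 (SE, n = 3 per group, edgeR's quasi-likelihood test, adjusted p = 0.00139), and *Slc2a3* passed the threshold in all 16 alternative settings.

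*Slc2a1*, which encodes GLUT1, the main glucose carrier of activated T cells, was at 52.6, 44.6, and 50.2 CPM in TEff and 39.0, 40.02, and 106 CPM in TRM-like samples. TRM-like replicates 1 and 2 lay below all TEff samples and replicate 3 above them, with a log2 fold change of 0.33 ± 0.35 (SE, n = 3 per group, edgeR's quasi-likelihood test, adjusted p = 0.734). The lactate carrier gene *Slc16a1* (MCT1) had the same split, with 117, 87.8, and 133 CPM in TEff and 43.8, 48.0, and 155 CPM in TRM-like samples. Its log2 fold change was -0.45 ± 0.44 with all samples and -1.30 without TRM-like replicate 3 (edgeR's quasi-likelihood test, adjusted p = 7.97e-05). *Slc16a3* (MCT4), the carrier associated with lactate export, was at 72.6, 23.1, and 79.8 CPM in TEff and 56.4, 56.1, and 174 CPM (replicate 3) in TRM-like samples. Here TEff replicate 2 lay far below all other samples, and the groups overlapped.

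The share of each carrier within its pair was compared as well. On a scale of counts per base of gene length, *Slc2a1* made up 28.9%, 26.0%, and 26.5% of the summed *Slc2a1* and *Slc2a3* level in TEff and 44.3%, 44.0%, and 63.8% in TRM-like samples. The groups did not overlap and the means differed by 23.5 percentage points (27.2% ± 1.56 against 50.7% ± 11.4, SD, n = 3 each), with the smallest two-sided p, 0.1, that an exact permutation test of 3 against 3 samples can give (adjusted p = 0.225 over 9 sets of related genes). The share of *Slc16a1* in the summed *Slc16a1* and *Slc16a3* level was 61.8%, 79.3%, and 62.6% in TEff and 43.9%, 46.2%, and 47.3% in TRM-like samples. It was lower in each TRM-like sample, replicate 3 included, by 22.1 percentage points on average (exact permutation p = 0.1, adjusted p = 0.225). Without TRM-like replicate 3 the differences were 17.0 and -22.9 percentage points.

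**Figure D3:**
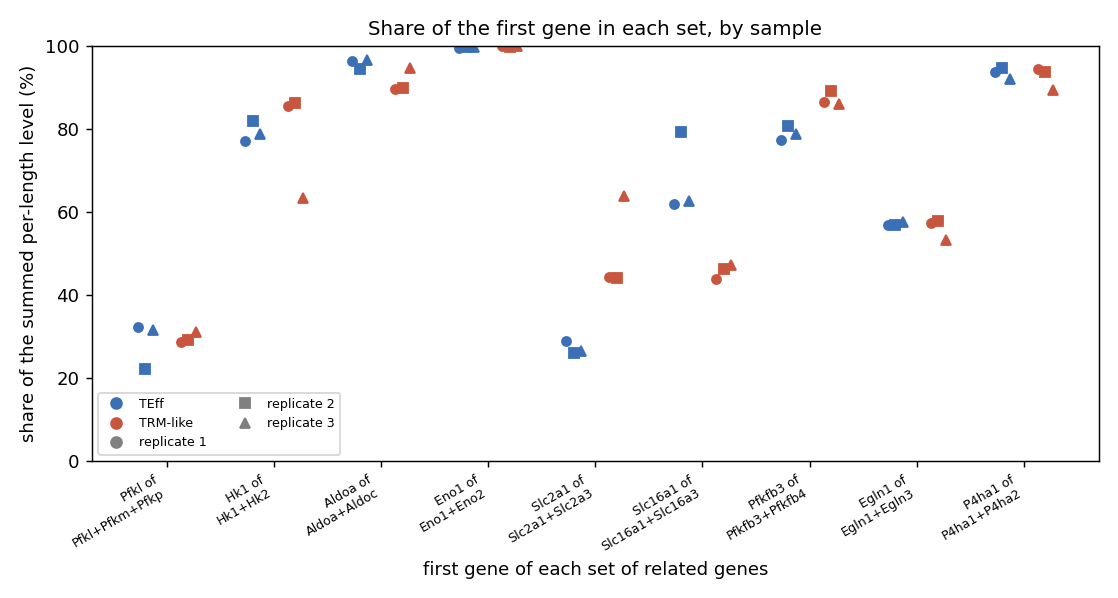
For each of 9 sets of related genes, the vertical axis gives the share of the first gene in the summed per-length level, in percent, for every sample. The TEff and TRM-like samples do not overlap for *Slc2a1*, *Slc16a1*, *Pfkfb3*, and *Eno1*, and the hexokinase share of *Hk1* in TRM-like replicate 3 (63.3%) lies below those of the other 5 samples.

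Of the 11 genes of upper glycolysis, *Aldoc* was called higher, none was called lower, and 10 had a positive log2 fold change. *Aldoc* (ENSMUSG00000017390, GRCm39 chromosome 11, 78213619 to 78218889, plus strand) encodes aldolase C, the aldolase best known from brain. It was at 46.0, 35.0, and 48.8 CPM in TEff and 162, 170, and 103 CPM in TRM-like samples. Every TRM-like sample lay above every TEff sample, and replicate 3, the highest TRM-like sample for most members, was the lowest here. The log2 fold change was 1.74 ± 0.22 (SE, n = 3 per group, edgeR's quasi-likelihood test, adjusted p = 0.00366), a 3.35-fold higher level, and it passed in all 16 alternative settings.

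*Aldoa*, the aldolase of most tissues, was at 762, 371, and 822 CPM in TEff and 850, 921, and 1146 CPM in TRM-like samples, with a log2 fold change of 0.58 ± 0.28 (edgeR's quasi-likelihood test, adjusted p = 0.392). Its groups did not overlap, with TEff replicate 3 just below TRM-like replicate 1 and TEff replicate 2 far below all others. *Aldoa* made up 94.5% to 96.5% of the summed per-length aldolase level in TEff and 89.6%, 89.8%, and 94.8% in TRM-like samples (exact permutation p = 0.2). *Aldoc* therefore stayed the smaller part of the aldolase mRNA in every sample.

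The hexokinases, which trap glucose in the cell, separated by gene. *Hk1* was at 105, 105, and 114 CPM in TEff and 121, 121, and 153 CPM in TRM-like samples, a log2 fold change of 0.29 ± 0.14 that did not pass (edgeR's quasi-likelihood test, adjusted p = 0.395). *Hk2*, the inducible hexokinase, was at 36.2, 26.6, and 35.6 CPM in TEff and 23.9, 22.3, and 103 CPM in TRM-like samples. The *Hk2* value of TRM-like replicate 3 was 4.45 times the mean of replicates 1 and 2, which lay below every TEff sample. The log2 fold change was 0.60 with all samples and -0.65 without TEff replicate 2 and TRM-like replicate 3, a split chosen from these values.

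At the phosphofructokinase step, which commits sugar to glycolysis, *Pfkp* led with 61.4% to 69.7% of the summed per-length level of *Pfkl*, *Pfkm*, and *Pfkp* in every sample. *Pfkp* was at 277.5, 208, and 291 CPM in TEff and 251, 253, and 475 CPM in TRM-like samples. *Pfkl* ranged from 57.1 to 127 CPM in TEff and from 96.5 to 197.5 CPM in TRM-like samples, and *Pfkm* from 17.3 to 20.2 and from 18.9 to 22.2 CPM, with overlap between the groups in all 3 genes. The mean share of *Pfkl* in this step was 28.6% ± 5.66 in TEff and 29.6% ± 1.27 in TRM-like samples (SD, n = 3 each).

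The genes of the bifunctional enzymes that set fructose 2,6-bisphosphate, an activator of phosphofructokinase, had shares of the pair that did not overlap between the groups. *Pfkfb3* was at 26.3, 25.8, and 26.7 CPM in TEff and 33.7, 35.0, and 47.6 CPM in TRM-like samples, without overlap and with a log2 fold change of 0.56 ± 0.16 (edgeR's quasi-likelihood test, adjusted p = 0.114). *Pfkfb4* was at 4.89, 3.90, and 4.53 CPM in TEff and 3.31, 2.71, and 4.93 CPM in TRM-like samples. The *Pfkfb3* share of the pair was 77.2%, 80.7%, and 78.8% in TEff and 86.5%, 89.1%, and 85.9% in TRM-like samples, a difference of 8.28 percentage points with no overlap (exact permutation p = 0.1, adjusted p = 0.225). *Gpi1*, the isomerase of glucose 6-phosphate, was at 277, 231, and 307.5 CPM in TEff and 343, 369, and 429 CPM in TRM-like samples (log2 fold change 0.48 ± 0.16), while *Tpi1*, the triose phosphate isomerase, overlapped widely with 461.5, 158, and 491.5 CPM in TEff and 389, 402, and 761 CPM in TRM-like samples.

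None of the 7 genes of lower glycolysis, which runs from glyceraldehyde 3-phosphate to lactate, was called with all 6 samples, although 3 were called lower without TEff replicate 2 and TRM-like replicate 3. *Ldha*, the lactate dehydrogenase subunit that favours lactate formation, was at 1165, 596.5, and 1174 CPM in TEff and 657, 696, and 1612 CPM in TRM-like samples. TRM-like replicates 1 and 2 sat near TEff replicate 2, and TRM-like replicate 3 sat above every other sample. The log2 fold change was 0.01 ± 0.38 with all samples (edgeR's quasi-likelihood test, adjusted p = 0.988). It was -0.54 without TRM-like replicate 3 (adjusted p = 0.107 by the same test) and -0.80 without both samples, a setting chosen from these values.

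*Pkm*, the pyruvate kinase gene of T cells, was at 1276, 580, and 1262 CPM in TEff and 1131, 1198, and 1809 CPM in TRM-like samples. The log2 fold change was 0.41 with all samples and 0.15 without TRM-like replicate 3. It was -0.14 without both TEff replicate 2 and TRM-like replicate 3, a setting chosen from these values. *Pgk1* (phosphoglycerate kinase) was at 79.0, 42.2, and 86.9 CPM in TEff and 49.5, 53.4, and 130.5 CPM in TRM-like samples on its own locus, and *Pgam1* (phosphoglycerate mutase) at 151, 82.4, and 141 CPM and 129, 133, and 254 CPM. *Eno1* (enolase 1) was at 324, 174, and 366 CPM in TEff and 273, 278, and 598 CPM in TRM-like samples. In all 3 of these genes TEff replicate 2 was the lowest sample and TRM-like replicate 3 the highest.

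*Eno2*, an enolase best known from neurons, had few reads, with 32, 14, and 17 counts in TEff and 5, 10, and 1 counts in TRM-like samples. Every TRM-like sample was below every TEff sample, and the log2 fold change was -2.12 ± 0.59 (SE, n = 3 per group, edgeR's quasi-likelihood test, adjusted p = 0.116). It was the only member whose lowest value was in TRM-like replicate 3. *Eno1* made up at least 99.6% of the summed per-length enolase level in every sample.

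Reads of lower glycolysis were shared with copies elsewhere in the genome, which bears on the level of these genes. Processed pseudogenes are copies of an mRNA inserted back into the genome, and *Gapdh* has many. Matching each coding sequence to all annotated transcripts (at least 95% identity over at least 200 bases) found 97 copies of 12 members, of which 90 were annotated as pseudogenes and 90 had counts. For *Gapdh* (GRCm39 chromosome 6, 125135289 to 125143518, minus strand), 76 copies held 97.0% of the summed counts, and for *Pgk1*, *Eno1*, and *Bnip3* the copies held 90.9%, 77.0%, and 51.8%. Of the other 8 genes with copies, the share went from 5% (*Ldha*) to 47.8% (*Higd1a*).

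The stretch below shows how alike these loci are and why a short read could belong to either. It is bases 340 to 429 of the *Gapdh* coding sequence beside the same bases of the pseudogene *Gm5559* (GRCm39 chr5:96009912-96010001, plus strand), with the position that differs in capitals, the only mismatch in 999 aligned bases.
Gapdh: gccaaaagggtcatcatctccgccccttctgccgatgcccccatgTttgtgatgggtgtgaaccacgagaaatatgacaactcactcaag
Gm5559: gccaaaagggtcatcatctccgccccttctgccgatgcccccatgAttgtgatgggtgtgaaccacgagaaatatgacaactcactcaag
How the authors counted reads that map to several places is not given in the sources used here, so the own-locus values of these 12 genes are uncertain.

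Adding the counts of the copies raised the level of *Gapdh* and left TEff replicate 2 its lowest and TRM-like replicate 3 its highest sample. *Gapdh* had 56.1, 35.4, and 62.2 CPM in TEff and 41.4, 45.4, and 74.5 CPM in TRM-like samples on its own locus, and 1718, 1200, and 1916 CPM and 1619, 1774, and 2265 CPM with its copies. The share on copies hardly moved between samples, from 96.7% to 97.4% for *Gapdh* and from 90.2% to 92.2% for *Pgk1*. With copies added, the log2 fold change of *Gapdh* was 0.23 ± 0.21 in place of 0.07 ± 0.27 and that of *Pgk1* 0.29 ± 0.35 in place of 0.17 ± 0.39, and neither passed (edgeR's quasi-likelihood test, adjusted p = 0.690 and 0.764). The count of members called, 2 higher and 3 lower, was the same, and none of the 5 called genes had a copy.

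**Figure D4:**
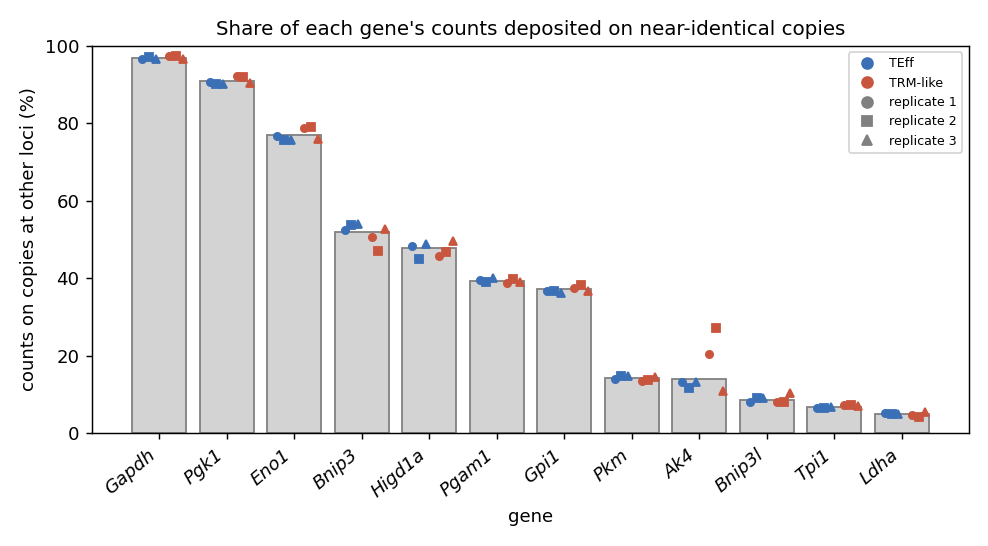
Bars give the percentage of the summed counts of a gene and its near-identical copies that was deposited on the copies, over all 6 samples, and points give each sample. The share is 97.0% for *Gapdh* and 90.9% for *Pgk1* and differs little between TEff and TRM-like samples, except for the thinly covered *Ak4* (10.8% to 27.3%).

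Per base of length and with copies added, *Gapdh* was the highest member in both groups, at 1429 ± 326 TPM (per-length counts scaled to sum to 1000000 in each sample) in TEff and 1649 ± 453 TPM in TRM-like samples (SD, n = 3 each). *Ldha* (722 ± 248 TPM), *Eno1* (629 ± 223 TPM), *Pkm* (621 ± 240 TPM), and *Pgk1* (526.5 ± 188 TPM) followed in TEff. In each TEff sample *Ldha* was the highest and *Pgk1* the lowest of these 4 genes, while *Eno1* and *Pkm* changed places between samples. *Hif1a* was at 75.4 ± 4.07 TPM and *Slc2a3* at 53.5 ± 2.27 TPM in TEff, below the 6 lower-pathway genes other than *Eno2* (0.494 ± 0.193 TPM) and above *Ankrd37* at 5.72 ± 0.773 TPM. In TRM-like samples *Hif1a* was at 37.3 ± 6.90 TPM, *Slc2a3* at 21.3 ± 4.42 TPM, and *Aldoc* at 62.0 ± 10.9 TPM, so that *Aldoc*, below both in TEff (19.3 ± 3.28 TPM), was above both in TRM-like samples. The places of *Gapdh*, *Pgk1*, and *Eno1* rest on the copies. On their own loci *Gapdh* was at 31.2 to 71.3 TPM and *Pgk1* at 30.45 to 102 TPM, against 414 to 1217 TPM for *Ldha*. Reads counted at several loci would enter these sums more than once.

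No gene at the branch from pyruvate to the mitochondria was called with all 6 samples. *Pdk1*, the kinase that shuts pyruvate dehydrogenase, was at 160.5, 117.5, and 165 CPM in TEff and 129.5, 141, and 207 CPM in TRM-like samples, with overlap and a log2 fold change of 0.11 ± 0.21. *Bnip3l*, which encodes NIX, a receptor for the removal of mitochondria, was at 84.8, 65.9, and 80.9 CPM in TEff and 120, 126.5, and 96.5 CPM in TRM-like samples. All 3 TRM-like values were above the TEff values and replicate 3 was the lowest of them, with a log2 fold change of 0.57 ± 0.16 (edgeR's quasi-likelihood test, adjusted p = 0.112) that was 0.67 without TRM-like replicate 3 (adjusted p = 0.00175 by the same test).

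Its relative *Bnip3* behaved otherwise, at 30.04, 13.1, and 29.9 CPM in TEff and 25.6, 27.4, and 67.5 CPM in TRM-like samples. The TRM-like replicates 1 and 2 lay between the TEff samples, and replicate 3 lay above all. *Higd1a*, an inner membrane protein of mitochondria, was at 30, 23.4, and 31.7 CPM in TEff and 28.0, 29.7, and 46.9 CPM in TRM-like samples. *Ak4*, a mitochondrial adenylate kinase, had the widest spread of the members other than *Eno2*, at 6.90, 1.92, and 8.40 CPM in TEff and 4.45, 3.50, and 24.9 CPM in TRM-like samples. Its log2 fold change was 0.93 ± 0.75 with all samples and -0.54 without TRM-like replicate 3. It was -0.95 without both TEff replicate 2 and TRM-like replicate 3, a setting chosen from these values.

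*Hif1a*, the oxygen-labile subunit of HIF, was lower in TRM-like samples, whereas the hydroxylase genes that act on it were not called. *Hif1a* (ENSMUSG00000021109, GRCm39 chromosome 12, 73948149 to 73996321, plus strand) was at 322, 298, and 310 CPM in TEff and 142, 154.5, and 172 CPM in TRM-like samples. The replicates of each group were close and the groups far apart, in contrast to most of the targets of the factor in this list. The log2 fold change was -0.99 ± 0.13 (SE, n = 3 per group, edgeR's quasi-likelihood test, adjusted p = 0.00479), and it missed the threshold without TEff replicate 1 (-0.95, adjusted p = 0.0538 by the same test). These values are of mRNA, while the level of the protein is set largely by its degradation.

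*Egln1* (PHD2), the main hydroxylase of HIF, was at 60.0, 48.9, and 64.4 CPM in TEff and 64.7, 69.3, and 101 CPM in TRM-like samples, and *Egln3* (PHD3), itself a target of HIF, at 33.7, 27.4, and 35.3 CPM and 35.7, 37.3, and 65.9 CPM. Neither gene overlapped between groups, but TRM-like replicates 1 and 2 lay just above TEff replicate 3. The log2 fold changes were 0.44 ± 0.19 and 0.53 ± 0.24 (edgeR's quasi-likelihood test, adjusted p = 0.335 and 0.353), and 0.20 and 0.18 without TRM-like replicate 3.

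Of the other 8 target genes, 7 had a positive log2 fold change, *Ankrd37* was called higher, and *Mxi1* lower. *Ankrd37* (ENSMUSG00000050914, GRCm39 chromosome 8, 46449939 to 46458744, minus strand), a frequently used marker gene of the HIF response, was at 4.53, 3.65, and 3.81 CPM in TEff and 8.33, 7.69, and 12.6 CPM in TRM-like samples. The groups did not overlap and the log2 fold change was 1.25 ± 0.23 (SE, n = 3 per group, edgeR's quasi-likelihood test, adjusted p = 0.0231), but it did not pass when any of the 3 TEff replicates was left out (adjusted p = 0.0961, 0.121, and 0.134 by the same test). *Ankrd37* rests on 69 to 274 counts per sample and overlaps *Ufsp2*, with 377 to 606 counts, on the other strand, and the strand setting of the counting is not given in the sources used here. The same limit holds for other members, such as *Pfkm* beside *Senp1* (1121 to 1605 counts) and *Slc16a3* beside *Csnk1d* (1684 to 2272 counts).

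*Mxi1* (ENSMUSG00000025025, GRCm39 chromosome 19, 53298852 to 53364241, plus strand) was at 29.5, 34.2, and 33.99 CPM in TEff and 18.5, 22.8, and 21.8 CPM in TRM-like samples. The groups did not overlap, with a log2 fold change of -0.63 ± 0.14 close to the limit of 0.58 (SE, n = 3 per group, edgeR's quasi-likelihood test, adjusted p = 0.0473). It was the least stable of the 5 calls and missed the threshold in 7 of 16 alternative settings.

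**Figure D5:**
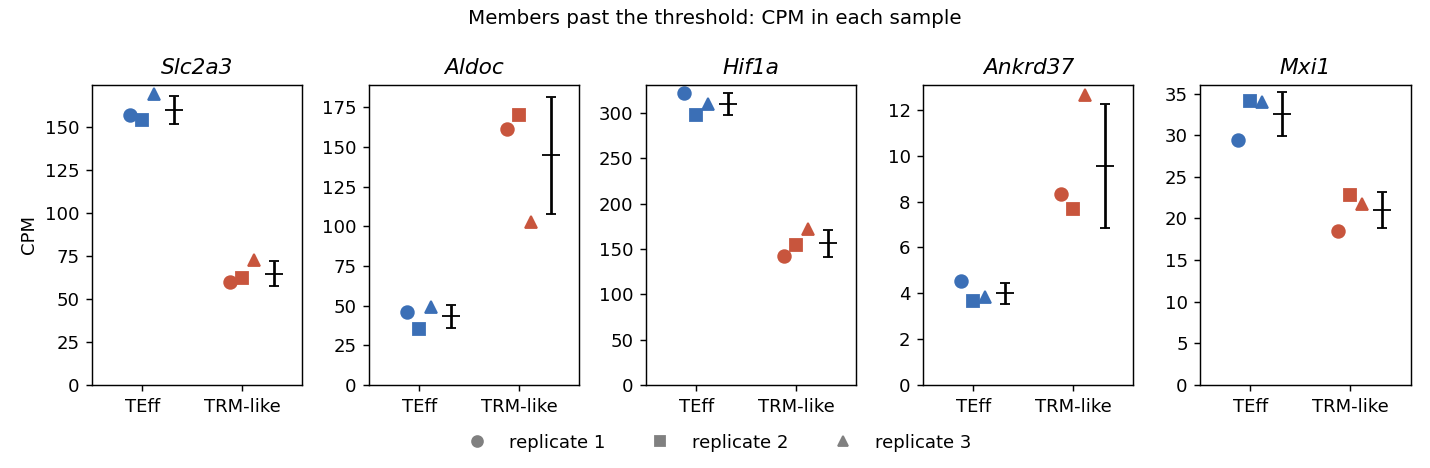
CPM in each sample for the 5 members past the threshold, with the mean and SD (n = 3) of each group beside the points and each vertical axis starting at 0. In all 5 genes the 3 TRM-like points lie on the same side of the 3 TEff points, and the *Aldoc* point of TRM-like replicate 3 (103 CPM) is the lowest of its group.

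None of the other targets was called, and TRM-like replicate 3 was the highest sample in each of them. *Vegfa*, the growth factor of blood vessels, was at 12.7, 8.05, and 12.5 CPM in TEff and 13.0, 12.9, and 28.5 CPM in TRM-like samples, and *P4ha1*, a collagen prolyl hydroxylase subunit, at 67.5, 40.7, and 72.9 CPM and 75.7, 79.4, and 155 CPM. Both had groups that did not overlap, with log2 fold changes of 0.71 ± 0.33 and 0.78 ± 0.31 (edgeR's quasi-likelihood test, adjusted p = 0.362 and 0.285). The fold changes were 0.21 and 0.35 without TRM-like replicate 3. They were 0.03 and 0.13 without both TEff replicate 2 and TRM-like replicate 3, a setting chosen from these values. *P4ha2* was at 2.56, 1.32, and 3.54 CPM in TEff and 2.57, 3.01, and 10.4 CPM in TRM-like samples.

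*Ndrg1*, a stress-responsive gene, was at 20.8, 19.3, and 24.3 CPM in TEff and 25.1, 27.9, and 34.8 CPM in TRM-like samples. Its groups did not overlap and its log2 fold change was 0.45 ± 0.16 (edgeR's quasi-likelihood test, adjusted p = 0.236). *Kdm3a*, a histone H3 lysine demethylase, was at 97.3, 99.98, and 91.2 CPM in TEff and 96.5, 102, and 187 CPM in TRM-like samples, and *Ero1a*, an oxidase of the endoplasmic reticulum, at 73.1, 60.2, and 77.3 CPM and 70.1, 69.1, and 138 CPM. In both genes TRM-like replicates 1 and 2 were at the level of TEff, and TRM-like replicate 3 was the only sample that stood apart upwards.

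The letters upstream of these genes were read for the core that HIF binds, ACGTG or GCGTG, on both strands in the 250 bases before the annotated start of the canonical transcript (GENCODE annotation of GRCm39). A core was in 25 of 38 members (65.8%), in 41.3% of 21685 protein-coding genes, and in 50% of the 14484 of them that were tested. The palindrome CACGTG, read by MYC and MAX and counted as a pair of overlapping cores, was in 6 members (15.8%), against 7.32% of the tested protein-coding genes. Among the called genes *Ankrd37* had 3 cores, *Hif1a* 2, and *Mxi1* 1. The windows of *Slc2a3* (chr6:122719705-122719954) and *Aldoc* (chr11:78213544-78213793) had none. Of the 250 bases of each of these last 2 windows, 175 lay in an annotated exon, so they are not upstream sequence alone. The windows of *Slc2a3*, *Ankrd37*, *Hif1a*, and *Mxi1* lay inside the annotated extent of the gene. A match describes these letters only, since the counts are per gene and do not tell which start was used.

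The windows of the 3 called genes with a core are shown because they hold the same core beside opposite directions of change, with the cores in capitals. They are chr8:46452906-46453155 (minus strand) for *Ankrd37*, chr12:73954320-73954569 (plus strand) for *Hif1a*, and chr19:53317594-53317843 (plus strand) for *Mxi1*, all in GRCm39 and written 5′ to 3′ along the gene.
Ankrd37: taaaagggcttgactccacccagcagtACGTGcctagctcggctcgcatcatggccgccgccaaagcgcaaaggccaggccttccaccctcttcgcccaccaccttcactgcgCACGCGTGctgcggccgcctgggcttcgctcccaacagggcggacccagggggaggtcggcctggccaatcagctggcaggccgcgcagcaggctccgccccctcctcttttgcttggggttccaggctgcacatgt
Hif1a: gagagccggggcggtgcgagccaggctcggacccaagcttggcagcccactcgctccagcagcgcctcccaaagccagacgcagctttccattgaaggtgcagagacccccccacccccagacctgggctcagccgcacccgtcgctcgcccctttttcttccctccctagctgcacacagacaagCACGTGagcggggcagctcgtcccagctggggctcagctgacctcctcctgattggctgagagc
Mxi1: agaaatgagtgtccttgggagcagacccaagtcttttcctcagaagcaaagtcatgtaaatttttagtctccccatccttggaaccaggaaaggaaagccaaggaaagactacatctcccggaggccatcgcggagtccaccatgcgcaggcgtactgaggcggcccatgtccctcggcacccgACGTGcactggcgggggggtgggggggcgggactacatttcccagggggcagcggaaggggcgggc

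Genes that surround this pathway were read from 7 further lists, of which 91 of 101 genes were tested. In all, 9 were higher (9.89%, against 1.52% of all genes tested) and 3 lower (3.30%, against 1.48%) in TRM-like samples. Fitting only genes with 10 counts in all 6 samples gave 2.02% higher and 1.89% lower. The lists were chosen with earlier results of these data known, so these shares do not test them. The median log2 fold change of the listed genes was 0.14, against 0.02 over all genes tested. Among the 17 tested side enzymes and other isozymes of glycolysis, *Galm*, which opens the sugar ring for use, was higher at 6.31, 5.92, and 6.47 CPM in TEff and 9.81, 12.1, and 11.2 CPM in TRM-like samples (log2 fold change 0.82 ± 0.16). *Ldhb*, the lactate dehydrogenase subunit that favours pyruvate, was lower at 3.57, 2.13, and 2.76 CPM in TEff and 0.741, 1.09, and 0.553 CPM in TRM-like samples (log2 fold change -1.82 ± 0.34). None of the 8 tested genes of the pentose phosphate pathway and none of the 11 of pyruvate entry into mitochondria was called. The gene with the highest mean CPM of each was *Tkt*, a transketolase, at 390.5 to 539.5 CPM in TEff and 372 to 602.5 CPM in TRM-like samples, and *Pdha1*, a pyruvate dehydrogenase subunit, at 81.7 to 89.8 CPM and 88.8 to 97.8 CPM. Among the side enzymes it was *Pgm1*, a phosphoglucomutase, at 41.1 to 69.1 CPM and 57.2 to 92.7 CPM.

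Genes of oxygen sensing and the further HIF targets also went both ways. *Cited2*, which competes with HIF for its coactivator, was lower at 53.7, 45.7, and 50.5 CPM in TEff and 25.6, 29.2, and 22.9 CPM in TRM-like samples (log2 fold change -0.95 ± 0.14) and was the 1 called gene of 9 in the list of oxygen sensing. Of 24 further targets, 4 were higher, namely *Rab20* (3.89 ± 0.36, log2 fold change), *Rragd* (2.43 ± 0.21), *Pdgfb* (1.94 ± 0.35), and *Kdm4b* (0.62 ± 0.14), and the chemokine receptor gene *Cxcr4* was lower (-2.43 ± 0.50, and -3.46 without TRM-like replicate 3). Of the 6 fits with a sample left out, *Cxcr4*, *Kdm4b*, and *Galm* passed in 1, *Ldhb* and *Pdgfb* in 2, *Cited2* in 4, and *Rab20* and *Rragd* in all 6. *Rragd*, a GTPase of amino acid sensing, was at 1.24, 1.22, and 0.995 CPM in TEff and 6.02, 6.20, and 6.50 CPM in TRM-like samples, with the TRM-like replicates close together. *Tfrc*, the transferrin receptor and the target with the highest CPM, followed the pattern of *Ldha*, at 459, 246, and 455.5 CPM in TEff and 225, 212, and 622 CPM in TRM-like samples.

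In the glycogen list, *Pygl* and *Ppp1r3b* were called higher and no gene was called lower. *Pygl*, a glycogen phosphorylase, was at 22.6, 22.1, and 28.0 CPM in TEff and 100, 106.5, and 105 CPM in TRM-like samples, a log2 fold change of 2.10 ± 0.14 (SE, n = 3 per group, edgeR's quasi-likelihood test, adjusted p = 0.000164) with no replicate standing apart. *Ppp1r3b*, a glycogen-targeting subunit of protein phosphatase 1, had a log2 fold change of 1.66 ± 0.29 and passed in 3 of the 6 fits with a sample left out, where *Pygl* passed in all 6. *Pygb*, the phosphorylase with the highest CPM of the list, was at 95.1 to 101 CPM in TEff and 101 to 121 CPM in TRM-like samples and was not called.

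Of the 13 genes of the MYC, MAX, and MondoA network, *Max*, the common partner of MYC and Mxi1, was called higher at 46.1, 51.0, and 46.3 CPM in TEff and 105, 118, and 86.2 CPM in TRM-like samples (log2 fold change 1.11 ± 0.15), and it passed in 4 of the 6 fits with a sample left out. *Txnip*, an inhibitor of glucose uptake and the gene of this list with the highest CPM, was at 282, 372.5, and 289.5 CPM in TEff and 282, 309, and 137 CPM in TRM-like samples. It ran opposite to the members in the samples that stood apart, highest in TEff replicate 2 and lowest in TRM-like replicate 3, and it was not called (edgeR's quasi-likelihood test, adjusted p = 0.607).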

How the data were processed

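The authors trimmed reads of total RNA libraries with Cutadapt, aligned and counted them with Rsubread with GENCODE gene models (build GRCm39), and they deposited the raw count of each gene beside its length, not normalized. For symbols and positions a newer GENCODE release for GRCm39 was used, which holds 56620 of the 57126 identifiers. Genes that had a count of 1 or more in 3 or more samples were fitted in edgeR 4.0.16 (R 4.3.3, TMM normalization, glmQLFit and glmQLFTest, group as the only term) with Benjamini-Hochberg adjustment. The threshold of an adjusted p below 0.05 and a log2 fold change beyond 0.58 is that of the study. A standard error is the log2 fold change divided by the square root of F. The study removed a batch effect without naming the batch in the sources used here, so none was fitted.

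Shares and TPM used counts divided by the deposited gene length, and shares were compared with exact two-sided permutation tests over samples. Copies at other loci were found with BLAST 2.17.0 on coding sequences. The members and gene lists were chosen with earlier results of these data known. Named genes were all members, pathway genes past the threshold, and the gene of each list with the highest mean CPM, except for a pathway gene that is not reported here. The fit was tested on simulated data. Alternatives were DESeq2 1.42.0, limma-voom (limma 3.58.1), other scaling factors and filters, the adjusted p alone, the replicate number as a block, and each sample left out. Adding the counts of copies and leaving out 2 samples together were chosen after seeing the data.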

Additional observations from a re-analysis of the deposited data

How the results depend on the processing

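*Slc2a3* and *Aldoc* passed the threshold in all 16 alternative settings. *Hif1a* was lost in 1, *Ankrd37* in 3, and *Mxi1* in 7. The count of members called was 5, and it was 13 without a filter, 13 with the replicate block, 12 without both TEff replicate 2 and TRM-like replicate 3, and 2 to 8 with each sample left out. Over all genes the count of 786 became 1256 with DESeq2, 1868 without a filter, 2034 with the replicate block, 4333 without both samples, and 263 to 3579 with each sample left out. For the pathway lists, 12 genes became 19 without a filter, 21 with the block, 31 without both samples, and 3 to 28 with each sample left out. The low end of these ranges came without TEff replicate 1 (for the lists also without TEff replicate 3), and the high end without TRM-like replicate 3. The cause of these moves was not tested. The prior degrees of freedom were 4.97 in the main fit and infinite in the fit with the block, and their part was not tested either.

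The median log2 fold change of the members was 0.41, -0.18 without both samples, and 0.03 to 0.56 with each sample left out. Without both samples, a setting chosen from these values, 4 genes were called against their main sign. They were *Hk2* at -0.65, *Pgk1* at -0.70, *Ldha* at -0.80, and *Ak4* at -0.95. With each sample left out, *Hk2* was at -0.52 to 0.95, *Ldha* at -0.54 to 0.24, and *Ak4* at -0.54 to 1.35. No share difference passed a test, and the sign turned for *Pfkl* without TEff replicate 2 (range with each sample left out -2.25 to 2.86 percentage points), for *Hk1* without TEff replicate 2 (0.484) and without TRM-like replicate 3 (-4.85 to 6.61), and without TRM-like replicate 3 for *Egln1* (-1.82 to 0.513) and *P4ha1* (-1.91 to 0.550). Deviations of same-numbered samples from their group means correlated at -0.33, 0.35, and 0.42 over 14822 genes for numbers 1, 2, and 3. Samples with different numbers were not compared, so whether the numbers pair the samples is not settled. Depth limits *Eno2*, with 1 to 32 counts per sample.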

Other observations

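Several genes of the surrounding lists that were not called kept TRM-like replicates 1 and 2 apart from replicate 3. *Cited4*, a coactivator partner chosen for mention after its values were seen, was at 0.0915, 0.203, and 0 CPM in TEff and at 5.45, 6.42, and 0.277 CPM in TRM-like samples, so that replicate 3 was near the TEff level. *Mycn* was at 20.03, 14.8, and 23.4 CPM in TEff and at 4.797, 5.68, and 12.4 CPM in TRM-like samples, also with replicate 3 nearest to TEff. *Taldo1* and *H6pd* of the pentose phosphate pathway were higher in every TRM-like sample, with log2 fold changes of 0.61 ± 0.14 and 0.62 ± 0.14 that missed the threshold (edgeR's quasi-likelihood test, adjusted p = 0.0504 and 0.0603).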
